A study of Mus musculus with 4 samples.

Results

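The cells described here are 207 lung cells that carried messenger RNA for C1q, of 28805 cell barcodes in 4 libraries. They were chosen by a fixed gate on raw UMIs (unique molecular identifiers, each standing for 1 captured RNA molecule). A barcode was kept if it held more than 200 genes and if fewer than 15% of its UMIs came from mitochondrial genes, which left 27544 cells. A kept cell was a member if C1qa, C1qb and C1qc together gave at least 5 UMIs, if fewer than 2 of the 6 alveolar macrophage genes Marco, Car4, Krt79, Pparg, Atp6v0d2 and Ear1 had a UMI, and if neither Cd3e (T cell receptor complex) nor Cd79a (B cell receptor complex) had one.

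The study sorted live CD45.2+ immune cells from the lungs of male C57BL/6 mice of 5 to 10 weeks and made 1 Chromium 3′ library for each of 4 groups. WT mice were Ift20 f/f, and KO mice were Ift20 f/f CD4 cre, in which the Cd4 promoter drives Cre, so that the deletion is directed at T cells and not at macrophages; all 4 groups carried the floxed allele. Papain mice received 25 µg of the protease papain into the nose on 3 consecutive days, were challenged again on day 14 and were harvested on day 15; the other mice are labelled DPBS, a saline buffer. Values for all 4 libraries are given in the order DPBS WT and DPBS KO, then Papain WT and Papain KO. With 1 library per group there was no test between groups, the number of mice behind a library was not given in the sources used here, and genotype or treatment cannot be told apart from the library. The intervals below cover counting error only.

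Interstitial macrophages live in the lung tissue around airways and vessels, unlike alveolar macrophages, which live in the air spaces. They are known for taking up debris, for presenting antigen on MHC class II and for making C1q, the recognition unit of the classical complement pathway, which binds immune complexes and dying cells. C1q is built from A, B and C chains in equal number, and the 3 genes lie next to each other in the genome.

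In the mouse genome build GRCm38 (GENCODE M21), the 3 genes lie on the minus strand of chromosome 4 within 18.7 kb, C1qb at chr4:136880129-136886187, C1qc at chr4:136889804-136893065 and C1qa at chr4:136895917-136898803. The promoter windows of C1qb and C1qc are shown because these genes choose the cells, and those of Retnla and Chil3 because these genes of alternative activation differed widely between the clusters described below. Each window runs from 250 bases before to 50 after the RefSeq start of the gene (build GRCm38.p6), 5′ to 3′ on the gene's strand, and capitals mark matches, on either strand, to 4 motifs in which N is any base. The letters GAGGAA are the core of sites that PU.1, the macrophage lineage factor, is known to bind. The letters TTCNNNNGAA form a palindrome of the STAT6 type. The letters TTGCNNAA form a site of the C/EBP type, and TATAAA are the letters of the TATA box. C1qa was not matched in the table of promoters.
C1qb, chr4:136886151-136886450, minus strand: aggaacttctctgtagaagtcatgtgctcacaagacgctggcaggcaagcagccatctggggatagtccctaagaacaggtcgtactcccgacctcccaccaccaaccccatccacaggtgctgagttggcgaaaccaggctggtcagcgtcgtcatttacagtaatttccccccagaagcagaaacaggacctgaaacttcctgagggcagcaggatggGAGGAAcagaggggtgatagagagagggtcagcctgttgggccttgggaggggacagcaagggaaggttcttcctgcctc
C1qc, chr4:136892865-136893164, minus strand: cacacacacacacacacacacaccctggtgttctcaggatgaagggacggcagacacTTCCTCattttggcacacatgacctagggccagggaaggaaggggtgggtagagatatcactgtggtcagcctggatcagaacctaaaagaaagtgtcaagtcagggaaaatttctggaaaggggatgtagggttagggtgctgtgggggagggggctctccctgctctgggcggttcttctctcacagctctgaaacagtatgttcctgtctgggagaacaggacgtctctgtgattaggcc
Retnla, chr16:48842359-48842658, plus strand: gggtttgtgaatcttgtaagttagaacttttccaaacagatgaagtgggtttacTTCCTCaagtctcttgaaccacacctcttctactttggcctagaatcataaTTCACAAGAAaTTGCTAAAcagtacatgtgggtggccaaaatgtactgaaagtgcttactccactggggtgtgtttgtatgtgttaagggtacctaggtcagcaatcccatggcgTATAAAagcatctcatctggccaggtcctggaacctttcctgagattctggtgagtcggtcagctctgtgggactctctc
Chil3, chr3:106167515-106167814, minus strand: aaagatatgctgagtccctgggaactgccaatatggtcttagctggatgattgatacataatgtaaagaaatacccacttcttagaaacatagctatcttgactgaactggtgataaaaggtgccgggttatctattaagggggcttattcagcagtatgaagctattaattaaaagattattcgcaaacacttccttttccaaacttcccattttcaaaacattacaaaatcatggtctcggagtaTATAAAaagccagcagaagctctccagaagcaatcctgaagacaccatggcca
The C1qb and C1qc windows each held 1 match to GAGGAA, which 28.3% of the 32851 windows in the table hold, and no match to the other letters. The Retnla window held 1 match to each of the 4, including the palindrome found in 6.95% of all windows, with the C/EBP-type letters (in 10.8%) 1 base further on. TATAAA stood in 13.6% of all windows and was the only match in the Chil3 window. Its first base lay at -30 from the RefSeq start in the Retnla window and at -3 in the Chil3 window. The matches are a description of these letters and not evidence of binding.

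Of the kept cells, 335 had 5 or more C1q UMIs; of these, 50 were lost to the alveolar genes, then 27 to Cd3e and then 51 to Cd79a. Of the 207 members, 65 had a UMI of 1 alveolar gene, most often Pparg (36 cells) or Atp6v0d2 (19 cells). At the edge of the gate, 12 members had exactly 5 C1q UMIs and 13 further cells had 4 and met every other condition. C1qb had a UMI in 205 members, C1qc in 188 and C1qa in 175, and the median number of C1q UMIs per member was 40, 21.5, 31.5 and 48.5 by library. The members were large: their median UMI count was 11653, 13419.5, 12790.5 and 16915 by library, against 6114.5 to 6901.5 for all kept cells, and together they held 568546, 444086, 1176328 and 790171 UMIs. Scrublet's own threshold marked only 0.0175% of the Papain KO cells and so had not worked there; with the highest scores called in each library, at 0.8% per 1000 cells, 3, 6, 5 and 1 members were called doublets and were kept. Libraries shared 65 barcodes, none of them a member's.

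Levels below are the members' summed UMIs of a gene per 1000000 UMIs of the members in that library (CPM). C1qa, which the gate used, stood at 2088, 1527, 1546 and 1716, C1qb at 2556, 1916, 1900.0 and 2219.8 and C1qc at 1312, 716, 944 and 988. The 3 chains kept a like order in each library, with C1qb highest. In cells gated on the alveolar genes, C1qb stood at 1.14 to 22.6. As a background, 0.471% to 1.61% of T-gated cells had any C1q UMI at a median of 6125 to 7398 UMIs per cell, and 0.0589% to 0.386% had 5 or more. Of B-gated cells, 0.794% to 3.13% had any and 0.378% to 1.31% had 5 or more, at a median of 4038.5 to 4992 UMIs.

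The label was checked against defining markers. Csf1r, the receptor that macrophages need to survive, stood at 617, 554, 551 and 626 and Apoe, the lipid carrier, at 2842, 1749.7, 2949.9 and 4571. In the alveolar gate Apoe stood at 73.97 to 399. Apoe separated the members from alveolar cells in every library, as did MHC class II: H2-Ab1, a class II chain, stood at 7568, 7584, 8151 and 7136 among members and at 181 to 319.7 in the alveolar gate. Dendritic-gated cells had more of it (10563 to 11364) and far less Lyz2, the macrophage lysozyme (3012 to 5009 against 10987 to 18440.3 in members). Alveolar genes that the gate did not use were nearly absent for Fabp1 (0 to 5.95), Siglecf (1.76 to 5.95) and Cidec (0 to 4.504). Others of that list, among them Cd9, Lpl, Itgax, Ear2 and Fabp5, were present, with values given below. The 15 genes of the list summed to 2007, 1957, 5242 and 1936, so it did not go 1 way. The lymphoid markers Cd3d, Trac, Cd4 and Ms4a1 stood at 0 to 6.33, and the summed levels of 8 markers each were 59.8 to 99.98 for T cells, 74.3 to 180.2 for B cells and 103 to 133 for NK and innate lymphoid cells. Igkc, an antibody light chain gene of B cells, stood at 17.6, 11.3, 42.5 and 36.7 and was 2-fold higher in papain over DPBS in WT. The mast cell and eosinophil genes Cpa3, Mcpt4, Tpsb2, Epx and Prg2 stood at 0 in every library.

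Lyve1, Folr2 and Cd163, which are known to mark macrophages along vessels, were close to absent. Lyve1, a hyaluronan receptor, stood at 1.76, 0, 33.2 and 8.86, Folr2 at 7.04, 6.76, 8.501 and 6.33 and the haemoglobin scavenger receptor gene Cd163 at 7.04, 2.25, 6.801 and 1.27. In Papain WT, 1 cell held 94.9% of the Lyve1 UMIs. Other genes of that resident programme were present, with F13a1, a transglutaminase, at 73.9, 106, 50.2 and 129 and Mrc1 as given below, and the 18 genes of the list summed to 962 to 1999. Ccr2, the receptor that draws monocytes out of blood, stood at 394, 297, 536 and 330.3, against 354 to 599.6 in cells gated as classical monocytes. Mertk, a receptor for dying cells often used to mark tissue macrophages, was low at 31.7, 24.8, 52.7 and 37.97. C1q itself was required by the gate and so says nothing of the label. Class II and Csf1r, which the gate did not use, were present, but the members were not a single interstitial population. Of the 5 clusters described below, 1 was led by genes typical of circulating monocytes, and another had H2-Ab1 and Lyz2 levels nearer to those of dendritic-gated cells than to those of the members as a whole. The cells are called C1q macrophages here for the rule that chose them. The summed level of 13 monocyte markers was 2090 to 4347, highest in Papain WT, that of 11 dendritic cell markers 118 to 448 and that of 8 neutrophil markers 24.8 to 354, highest in both papain libraries; their part in the results below was not tested.

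C1q macrophages were a larger share of the Papain WT library than of the DPBS WT library. They were 43 of 8144 kept cells in DPBS WT (0.528%, 95% Clopper-Pearson interval 0.382% to 0.711%), 32 of 5704 in DPBS KO (0.561%, 0.384% to 0.791%), 86 of 7994 in Papain WT (1.08%, 0.861% to 1.33%) and 46 of 5702 in Papain KO (0.807%, 0.591% to 1.07%). The log2 ratio of shares, papain over DPBS, was 1.03 (95% counting interval 0.48 to 1.59) in WT and 0.52 (-0.16 to 1.22) in KO. KO over WT, it was 0.09 (-0.62 to 0.78) with DPBS and -0.42 (-0.96 to 0.12) with papain. With all kept cells as the denominator, the papain difference in WT alone was larger than its counting error. The share is one of sorted CD45.2+ cells, so it moves with every other cell type in the sort. Among cells with a Csf1r or Lyz2 UMI and without Cd3e or Cd79a, the papain ratio was 0.92 (0.37 to 1.48) in WT and 1.06 (0.38 to 1.76) in KO, so that both were past counting error, and KO over WT with papain it was -0.08 (-0.63 to 0.46).

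**Figure D1:**
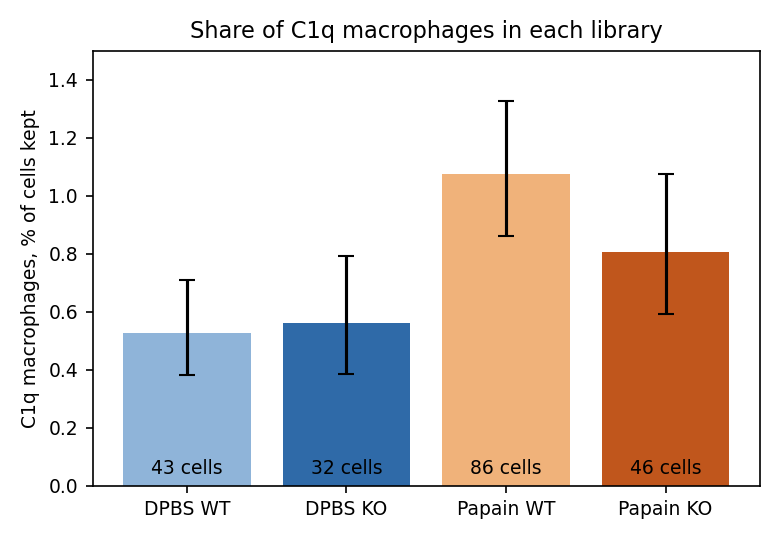
C1q macrophages as a percentage of all kept cells, 1 bar per library with its cell number; error bars are 95% Clopper-Pearson intervals and cover counting error only. Papain WT, at 1.08%, lies above both DPBS libraries, and its interval overlaps that of Papain KO.

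The 207 cells were not of 1 kind. Leiden clustering on 1000 variable genes, without the gate's genes, gave 5 clusters of 58, 47, 41, 35 and 26 cells, named here by leading genes. Since the clusters were made from these genes, the levels that follow describe them and were not tested. The 4 values by library are cell counts in each cluster.

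The largest cluster, of 58 cells (16, 12, 14 and 16), was led by Ahnak2, Cd200r4, Slco2b1, Atf5 and Syngr1, with Il1a (an alarm cytokine), Emp1 and Tnf among its 10 leading genes. Tnf, a central inflammatory cytokine, stood at 778 in it and at 147, 43.7, 142 and 125 in the other clusters in order of size. It was poor in MHC class II, with H2-Ab1 at 2186 against 10580.0, 7093, 13085 and 8312. It had the most Cd68, a lysosomal protein (806), Adgre1, the F4/80 antigen (386), Trem2, a lipid-sensing receptor (686), and Cd63 (1049.9 against at most 663 elsewhere). Cxcl2, which draws neutrophils, stood at 6875. Scrublet called 7 of these 58 cells doublets.

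The second cluster, of 47 cells (4, 7, 32 and 4), was led by Ccl17, Chil3, Pxdc1, Nr4a3 and Dcstamp. Ccl17, a chemokine for CCR4-bearing T cells, stood at 2411 in it and at 723 in the next highest cluster. Chil3, the chitinase-like protein Ym1, stood at 2865, Itgax (CD11c) at 568 and Ccr7, the receptor for lymph node entry, at 169.7. It was rich in H2-Ab1 (10580.0) and had the least Lyz2 (5935 against 12658 to 24083 elsewhere). On these genes it lay at or near the dendritic gate, which had H2-Ab1 at 10563 to 11364 and Lyz2 at 3012 to 5009. Zbtb46, a factor of dendritic cells, stood at 18.5 in the cluster and at 40.2 to 47.5 in that gate, and Csf1r at 435 against 83.96 to 177. The label interstitial macrophage is thus uncertain for these 47 cells. None of them was called a doublet.

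The third cluster, of 41 cells (12, 9, 13 and 7), was led by Plac8, Ace, Ly6c2, Gm9733 and Eno3, with Treml4 and Irf7 among its 10 leading genes. Plac8 stood at 3129.9 in it and at 8.85 to 75.7 elsewhere, and Ace, angiotensin-converting enzyme, at 492 against 1.43 to 15.6. Its C1q was low, with C1qa at 324 against 1484 to 3869 in the other clusters, and Spn (CD43), another gene of patrolling monocytes, stood at 183 against at most 31.6. For these 41 cells the label interstitial macrophage goes against the leading genes.

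The fourth cluster, of 35 cells (10, 2, 20 and 3), was led by Cd72, Tnfrsf11a, Bmyc, Ms4a7 and Ntpcr and had the most C1q: C1qa stood at 3869, C1qb at 4176 and C1qc at 2170.3. It also had the most Cd74, the class II chaperone (45718), Ciita, the class II master regulator (208 against at most 108 elsewhere), Ccr2 (799), the fractalkine receptor gene Cx3cr1 (259.7) and Mgl2, a lectin (935). These are genes that MHC class II-high interstitial macrophages are known to carry.

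The fifth cluster, of 26 cells (1, 2, 7 and 16), was led by Slpi, an antiprotease, Ednrb, Lyz1, S100a9 and Ltc4s, with Icam2 and Retnla behind them. Retnla, a secreted product of IL-4-stimulated macrophages, stood at 15252 in it against 3.36 to 3329 elsewhere. Fn1 (fibronectin) stood at 7237, Cfp (properdin, which stabilises the alternative complement convertase) at 1402 and Itgam (CD11b) at 770.2, each the highest of the 5 clusters. The Fc receptor gene Fcgr1 was almost absent (2.23 against 58.5 to 156), and Ms4a7 had no UMI in these 26 cells. S100a8 and S100a9, neutrophil genes, stood at 554 and 559 in the cluster; among Papain KO members 1 cell held 94.5% of the S100a9 UMIs.

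**Figure D2:**
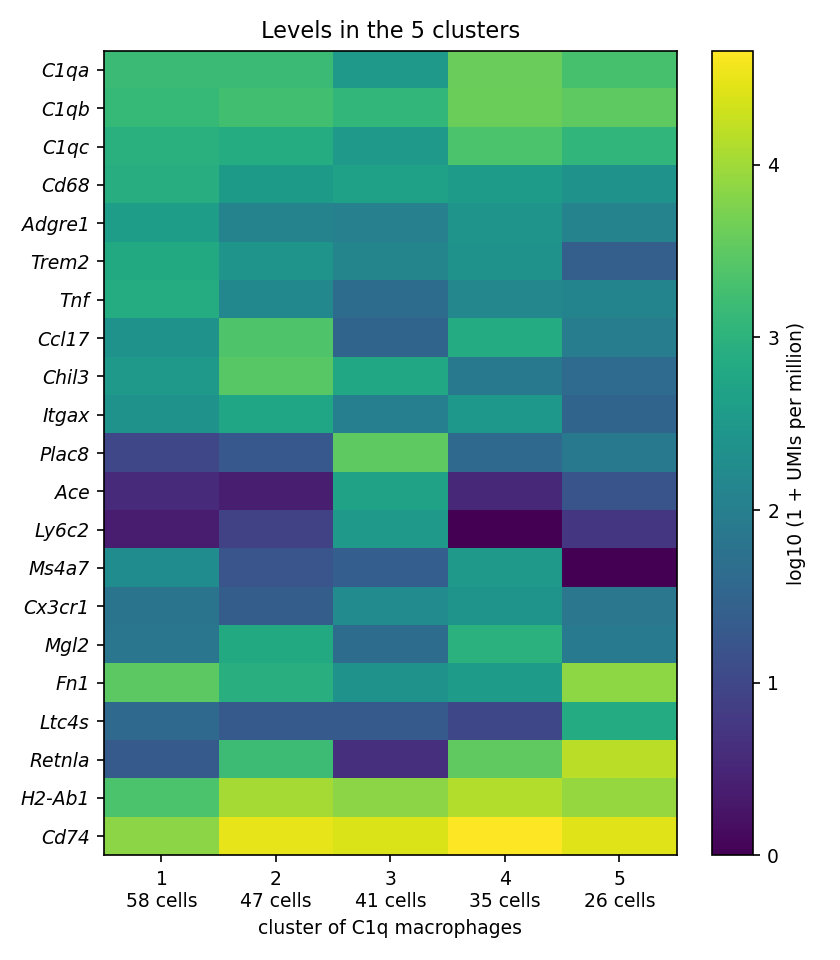
Levels of 21 genes in the 5 clusters of C1q macrophages, as log10 of 1 + CPM (colour), 1 column per cluster with its cell number. C1q is highest in cluster 4 and lowest in cluster 3, where Plac8, Ace and Ly6c2 stand out; H2-Ab1 and Cd74 are lowest in cluster 1, and Fn1, Ltc4s and Retnla are highest in cluster 5.

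The cell counts of the clusters by library are no measure of a change in cell types, since genes that differ between the libraries helped to make the clusters and a cluster mostly of 1 library may be that library. They show where the differences below lie. Papain WT gave 32 of the 47 cells of the Ccl17 and Chil3 cluster, and Papain KO 16 of the 26 cells of the Slpi and Ednrb cluster. Of all UMIs of the Papain WT members, 39.6% came from the former and 5.81% from the latter, against 7.61% and 39.2% in Papain KO. In summed levels, fewer cells of a kind and less RNA per cell cannot be told apart. Each library enters 2 comparisons, so a high or low library appears in both.

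For each comparison a gene was assessed if both libraries together held at least 50 UMIs of it, and called if its level differed 2-fold. In KO over WT with papain, 224 of 4707 genes (4.76%) were called, 95 higher (2.02%) and 129 lower (2.74%). In KO over WT with DPBS, 103 of 2730 (3.77%) were called, 1.76% higher and 2.01% lower. In papain over DPBS, 203 of 4340 (4.68%) were called in WT, 3.32% higher and 1.36% lower, and 156 of 3268 (4.77%) in KO, 3.21% higher and 1.56% lower. A gene nearly absent from 1 library could meet the minimum only through the library where it was high, and had then to differ. Of the called genes, 34 of the 95 higher and 79 of the 129 lower in KO over WT with papain, and 96 of the 144 higher in papain over DPBS in WT, were of this kind, since at the level of their lower library both together would have held fewer than 50 UMIs. The counts and medians of gene lists below are therefore descriptions. The median log2 ratio over all genes lay between -0.02 and 0.08.

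Genes of alternative activation, the programme that IL-4 and IL-13 induce in macrophages, were highest in Papain WT for most called members. Papain over DPBS in WT, 6 of 18 assessed genes were 2-fold higher and 0 lower (median log2 ratio 0.73), where 3.32% of all genes were higher. Papain over DPBS in KO, 2 of 15 were higher and 5 lower (median -0.27). KO over WT with papain, 1 was higher and 8 of 18 were lower (median -0.70), where 2.74% of all genes were lower, and with DPBS 3 of 13 were higher and 1 lower (median 0.21). Most calls rested on few cells: in papain over DPBS in WT 1 cell held more than 20% of the higher library's UMIs for 6 of the 6 genes, and in KO over WT with papain for 6 of the 8 lower ones. Of the same 6 and 8, 4 (Arg1, Ccl22, Ccl24 and Socs1) and 3 (Arg1, Ccl22 and Socs1) met the minimum of 50 UMIs only through Papain WT.

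Mrc1 and Mgl2 were the lower genes in KO over WT with papain that no single cell carried. Mrc1, the mannose receptor, stood at 135, 128, 254 and 106, and its log2 ratio was 0.91 (95% counting interval 0.54 to 1.29) for papain over DPBS in WT and -1.26 (95% counting interval -1.62 to -0.90) for KO over WT with papain. No cell held more than 19.5% of a library's Mrc1 UMIs. Mgl2 stood at 640.2, 299, 393 and 69.6, lowest in Papain KO, with a log2 ratio of -2.50 (95% counting interval -2.93 to -2.09) for KO over WT with papain; in DPBS WT 1 cell held 35.2% of its UMIs. Arg1, the arginase of alternatively activated macrophages, stood at 3.52, 2.25, 64.6 and 5.06; it had UMIs in 12 of 86 Papain WT cells, 1 of which held 25.00% of them. Pdcd1lg2, a ligand of the T cell inhibitory receptor PD-1, had no UMI in either DPBS library and stood at 26.4 in Papain WT and 2.53 in Papain KO.

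Chil3 stood at 94.98, 87.8, 2142 and 101, highest in Papain WT, where 1 cell held 44.2% of its UMIs. Without the cell of each library with most Chil3, the log2 ratio of KO over WT with papain was -4.21 in place of -4.40. T cells without a UMI of the 6 alveolar genes or C1q carried Chil3 at 57.00, 65.1, 115 and 33.3. The Chil3 level of members was thus close to that of T cells, which do not make it, in the DPBS libraries, and far above it in Papain WT. Ccl24, an eosinophil chemokine, stood at 17.6, 4.504, 744 and 118 with 70.4% of the Papain WT UMIs in 1 cell, and Ccl22 at 0, 324, 135 and 8.86 with 94.4% of the DPBS KO UMIs in 1 cell. Retnla stood at 3247, 7062, 1999 and 2669; single cells held 84.8%, 53.9%, 20.2% and 35.7% of its UMIs, and so its order between libraries rests on few cells. Ccl17 stood at 543, 534, 1287 and 261, with 28.7% in 1 Papain WT cell.

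Fn1 stood apart from the rest of the list, at 853, 1961, 1562 and 4308. It was highest in Papain KO, with a log2 ratio of 1.46 (95% counting interval 1.38 to 1.55) for KO over WT with papain and 1.20 (95% counting interval 1.04 to 1.36) with DPBS, where 1 cell held 24.9% of the DPBS KO UMIs.

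**Figure D3:**
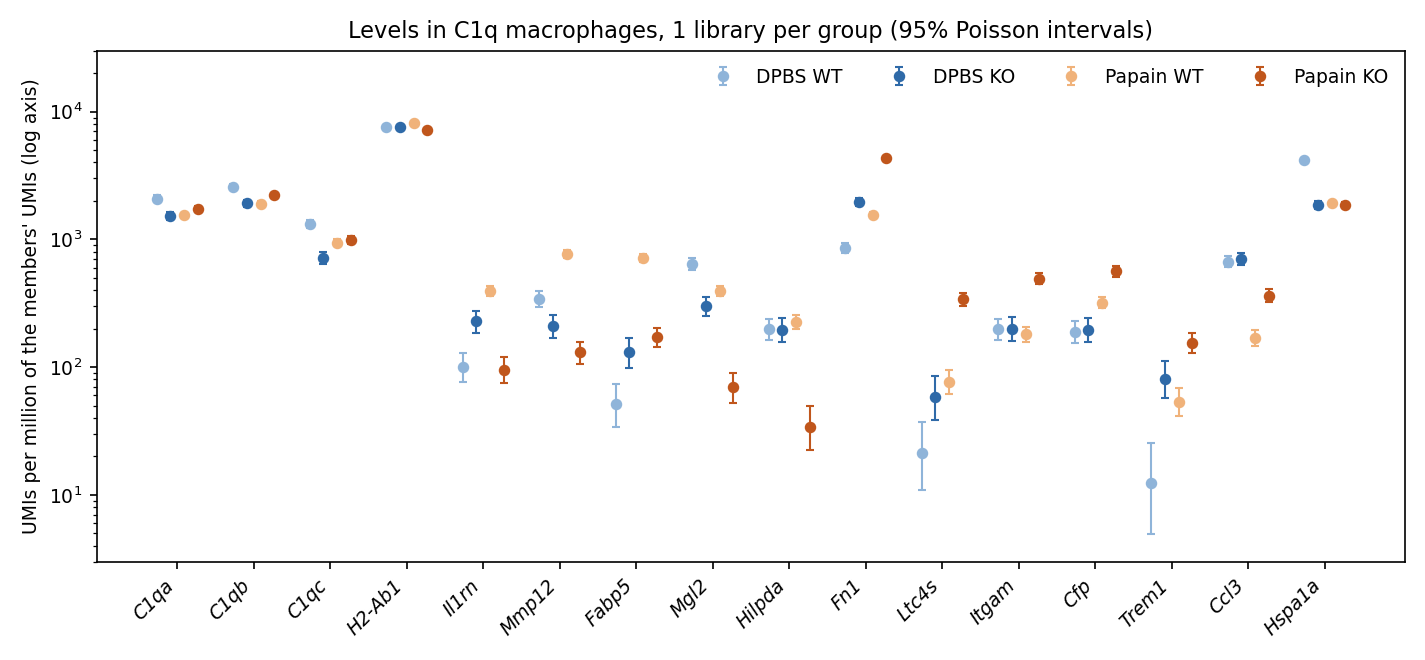
Summed level of 16 genes among C1q macrophages in each library, in CPM of the members' UMIs on a log axis; bars are 95% Poisson intervals. Il1rn, Mmp12 and Fabp5 are highest in Papain WT, Mgl2 and Hilpda are lowest in Papain KO, and Fn1, Ltc4s, Itgam, Cfp and Trem1 are highest in Papain KO.

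Alveolar macrophage genes outside the gate, which share Chil3 with the previous list, were also highest in Papain WT. Papain over DPBS in WT, 5 of 9 assessed genes were 2-fold higher (median 1.00), and KO over WT with papain, 6 of 9 were 2-fold lower (median -1.49). A single cell held more than 20% of the higher library's UMIs for 4 of the 5 and 4 of the 6. Of the 5 higher genes, 2 (Ctsk and Plet1) met the UMI minimum only through Papain WT and had then to differ. Of the 6 lower genes, 0 were of this kind. Fabp5, a fatty acid carrier, stood at 51.01, 131, 717 and 172, Itgax at 227, 248, 388 and 137 and Ear2, an eosinophil-type ribonuclease, at 259, 254, 519 and 165. Each was highest in Papain WT. The lipoprotein lipase gene Lpl (259, 214, 281 and 304) and the tetraspanin gene Cd9 (957, 860.2, 854 and 835) were within 1.5-fold across the 4 libraries. The defining alveolar genes Fabp1, Siglecf and Cidec, as given above, were at or near 0 in all 4 libraries. With no UMI of any of the 6 alveolar gate genes allowed (142 cells), the list's median for KO over WT with papain was -0.77.

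The genes named by size of difference in KO over WT with papain came, on the lower side, from enzymes, secreted factors and regulators that were high in Papain WT or low in Papain KO. Il1rn, the natural blocker of IL-1, stood at 100.3, 227, 394 and 94.9, with a log2 ratio of -2.05 (95% counting interval -2.42 to -1.70). Mmp12, the macrophage elastase, stood at 339, 209, 768 and 130.4 (log2 ratio -2.56), and Hilpda, a lipid droplet gene induced by low oxygen, at 199, 196, 226 and 34.2 (log2 ratio -2.73). Hilpda was even in the other 3 libraries and low in Papain KO alone. Rnase2a (7.04, 29.3, 154 and 26.6) and Gatm, an enzyme of creatine synthesis (51.01, 36.03, 209 and 44.3), were high in Papain WT alone, as was the vitamin D receptor gene Vdr (28.1, 22.5, 71.4 and 11.4). Ccnd1 (cyclin D1) stood at 68.6, 40.5, 56.1 and 10.1.

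On the higher side, Ltc4s, the synthase of the cysteinyl leukotriene C4, stood at 21.1, 58.5, 76.5 and 339, with a log2 ratio of 2.15 (95% counting interval 1.80 to 2.51) for KO over WT with papain and 2.53 (95% counting interval 1.95 to 3.17) for papain over DPBS in KO. Thbs1 (thrombospondin 1) stood at 135, 306, 292 and 1006, Clec4e (the Mincle receptor for glycolipids and dying cells) at 109, 185, 111 and 395, Trem1, an amplifier of myeloid activation, at 12.3, 81.1, 53.6 and 154 and Rgcc, a cell cycle regulator, at 171, 329, 138 and 524. Each of these genes was highest in Papain KO, and for each DPBS KO was above DPBS WT as well. Ltc4s had 12 UMIs in DPBS WT and 26 in DPBS KO. Dpep2 (ENSMUSG00000053687), Gadd45a and Evi5 completed the 8, with 44, 56 and 45 UMIs in Papain KO.

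Most of the higher genes examined lay largely in the Slpi and Ednrb cluster, but Rgcc and Tnf did not. Of the Papain KO UMIs, the 16 cells of the Slpi and Ednrb cluster held 96.3% for Ltc4s, 77.5% for Fn1, 80.9% for Thbs1, 83.97% for Clec4e, 77.9% for Trem1, 92.1% for Hp (haptoglobin) and 93.9% for Cfp, which was not past 2-fold, while they held 39.2% of all UMIs. They held 38.9% for Rgcc, close to their share of all UMIs, and 11.4% for Tnf; the Tnf and Il1a cluster held 51.4% and 72.3% of these. Inside the Slpi and Ednrb cluster the level of Ltc4s was 950.4 (95% Poisson interval 734 to 1211) in 7 Papain WT cells and 832 (95% Poisson interval 734 to 940.4) in 16 Papain KO cells. Itgam was 687 (95% Poisson interval 505 to 914) and 890.5 (95% Poisson interval 789 to 1002) there, and Fn1 was 4547 (95% Poisson interval 4056 to 5082) and 8508 (95% Poisson interval 8186 to 8839). Without this cluster, Ltc4s fell under the minimum of 50 UMIs, and the log2 ratio of KO over WT with papain was 0.21 for Fn1. Inside the cluster the level of Ltc4s did not differ beyond counting error, while Fn1 was higher in Papain KO. In the Tnf and Il1a cluster Fn1 went the other way, at 3989 (95% Poisson interval 3714 to 4279.7) in Papain WT and 2686 (95% Poisson interval 2488 to 2895) in Papain KO, and the intervals did not overlap.

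The lower genes differed within some clusters and not in others. In the Tnf and Il1a cluster, with 14 Papain WT and 16 Papain KO cells, Il1rn stood at 384 (95% Poisson interval 302 to 481) and 118 (95% Poisson interval 79.6 to 168), Mmp12 at 1014 and 236, Hilpda at 292 and 19.7, and Fabp5 at 999 and 244. The intervals did not overlap for these 4 genes, nor for Mrc1 (287 and 153) and Ear2 (333 and 189). Mgl2 did not differ there beyond counting error (46.1 and 55.1). In the Slpi and Ednrb cluster, Il1rn (892 and 136), Hilpda (483 and 38.7), Mrc1 (336 and 58.1), Mgl2 (175 and 22.6) and Ear2 (263 and 54.8) were lower in Papain KO, with intervals that did not overlap. Fabp5 stood higher there in Papain KO (29.2 and 106), within counting error, and Mmp12 had 1 UMI in all. In the Plac8 and Ace cluster, with 13 and 7 cells, Fabp5 (68.7 and 163), Ear2 (143 and 196) and Mmp12 (5.28 and 40.8) also stood higher in Papain KO, each with overlapping intervals, while Mrc1 (106 and 16.3) was lower and its intervals did not overlap. The Ccl17 and Chil3 cluster held 71.9% of the Papain WT UMIs of Mmp12, 66.3% of Il1rn and 79.6% of Chil3, and with 4 Papain KO cells it was not compared.

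**Figure D4:**
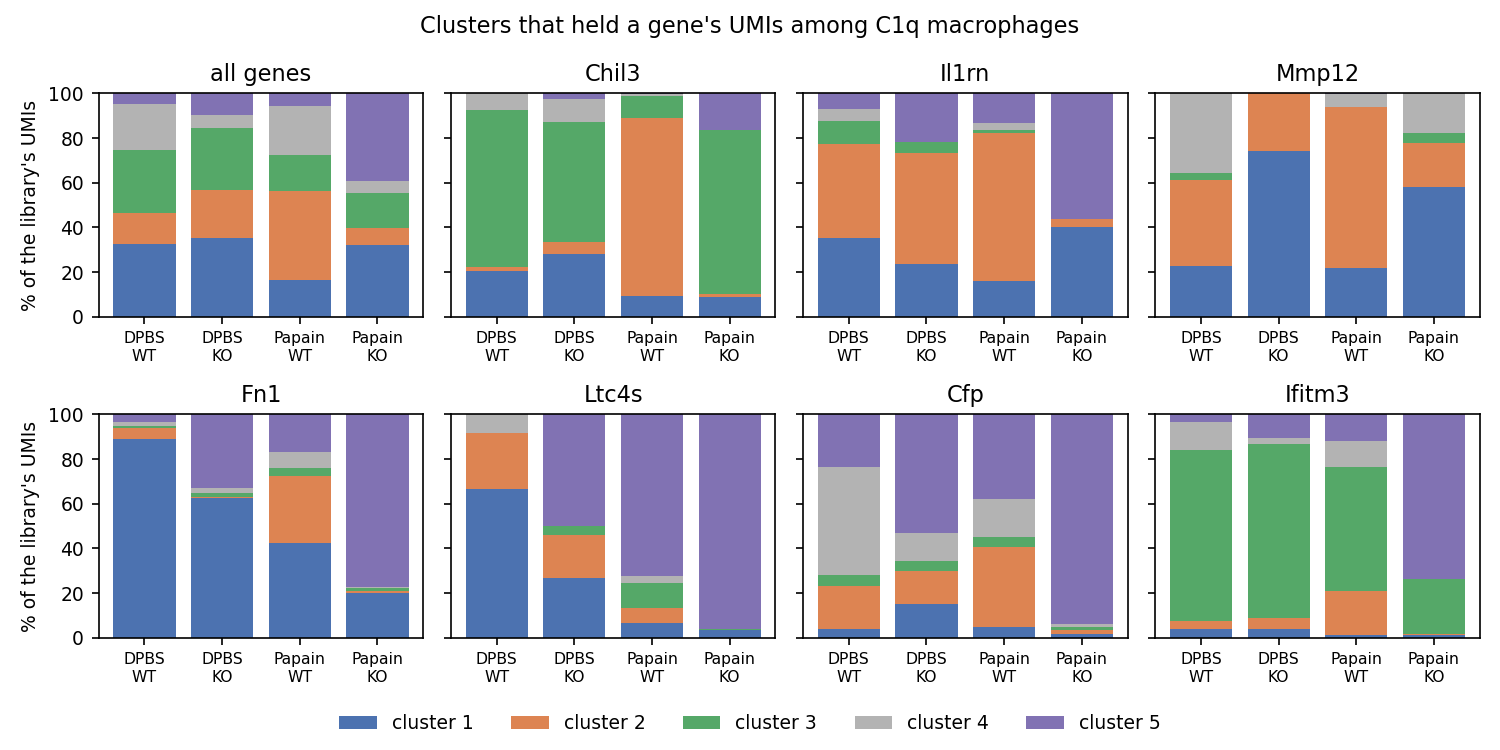
Percentage of each library's UMIs that each cluster of C1q macrophages held, for all genes together and for 7 genes; each bar sums to 100%. In Papain KO the purple cluster 5 held 39.2% of all UMIs but 96.3% of Ltc4s and 93.9% of Cfp, and in Papain WT the orange cluster 2 held 79.6% of Chil3. A single Papain WT cell held 44.2% of that library's Chil3 UMIs.

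Complement genes other than C1q centred on receptors and properdin. Of the proteases that C1q activates, C1rb, C1s1 and C1s2 had no UMI and C1ra stood at 2.53 to 4.504, so RNA for the enzymes that C1q activates was nearly absent. C3, the central component, stood at 29.9, 33.8, 141 and 132 and was 2-fold higher with papain in both genotypes (log2 ratio 2.24 (95% counting interval 1.52 to 3.05) in WT and 1.96 (95% counting interval 1.17 to 2.85) in KO). Cfp stood at 188, 196, 319.6 and 562, the anaphylatoxin receptor genes C3ar1 at 186, 94.6, 79.9 and 167 and C5ar1 at 137, 159.9, 94.4 and 267, and Itgam, a chain of complement receptor 3, at 199, 200.4, 180.2 and 491. KO over WT with papain, 4 of 12 assessed genes were 2-fold higher and 1 lower (median 0.33), where 2.02% of all genes were higher and 2.74% lower. The higher genes were C3ar1, C5ar1, Itgam and Cr1l, a complement regulator, and the lower gene was Itgax. The log2 ratio of Cfp was 0.81 with all cells and -1.91 without the Slpi and Ednrb cluster. With DPBS no gene of the list was called in KO over WT (median 0.01).

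Antigen presentation by MHC class II gave 1 call over the 4 comparisons. H2-Aa stood at 8330.0, 8865, 8664 and 7584 and Cd74 at 26390.1, 27809.9, 25121 and 22353. It was H2-DMb2, a peptide-loading chain (86.2, 54.04, 62.1 and 29.1), 1 of 10 assessed genes, which was 2-fold lower in KO over WT with papain, where the median was -0.29 and 0 of the 10 lay above 0. Of all genes, 2.74% were lower in that comparison. In papain over DPBS in KO the median was -0.25, with 2 of 9 above 0. Cathepsin S (Ctss), which trims the class II chaperone, stood at 3192, 3157, 4143 and 3654. Of the costimulatory ligands, Cd86 was even (171, 159.9, 134 and 168) and Cd80 was highest in DPBS KO (38.7, 101, 66.3 and 39.2; log2 ratio 1.39 (95% counting interval 0.62 to 2.20) for KO over WT with DPBS). In KO over WT with DPBS, Cd80 met the UMI minimum only through DPBS KO and had then to differ. Cd274 (PD-L1) stood at 10.6, 18.01, 62.1 and 26.6, highest in Papain WT.

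Chemokines differed in both directions. Ccl3, which draws monocytes and T cells, stood at 668, 700.3, 168 and 362, lower with papain in WT (log2 ratio -1.99 (95% counting interval -2.24 to -1.74)) and about level between genotypes with DPBS; 1 cell held 22.6% of the DPBS WT UMIs. Ccl2, the ligand of CCR2, stood at 299, 775, 323 and 396, highest in DPBS KO (log2 ratio 1.37 (95% counting interval 1.10 to 1.65) for KO over WT with DPBS). Cxcl2 stood at 3024, 5172, 2651 and 4513 and Cxcl10, an interferon-induced T cell chemokine, at 151, 721, 169 and 266, both highest in DPBS KO, where 1 cell held 50.3% of the Cxcl10 UMIs. Ccl6 (774, 1315, 1738 and 2364) and Ccl9 (547, 806, 953 and 1169) were highest in Papain KO. Over the list, 3 of 13 genes were 2-fold higher and 0 lower in KO over WT with DPBS, 2 and 5 of 18 with papain, 7 and 3 of 17 in papain over DPBS in WT and 1 and 4 of 15 in KO, with medians of 0.56, 0.00, 0.54 and -0.50. Over all genes, 1.76% to 3.32% were higher and 1.36% to 2.74% lower in these comparisons. A single cell held more than 20% of the higher library's UMIs for 2 of the 3, 6 of the 7, 8 of the 10 and 5 of the 5 called chemokines. Only through Papain WT did 4 of the 7 genes higher in papain over DPBS in WT (Ccl22, Ccl24, Ccl5 and Cxcl13) meet the minimum of 50 UMIs. The same held for 3 of the 5 lower in KO over WT with papain (Ccl22, Ccl5 and Cxcl13). The receptor gene Ccr1 stood at 63.3, 155, 115 and 128 and Cx3cr1 at 167, 65.3, 108 and 81.00, and in KO over WT with DPBS the first was 2-fold higher and the second 2-fold lower.

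Among cytokines, Il1b stood at 1785, 2331, 2155 and 3108, Tnf at 341, 389.6, 139 and 420.2 and Areg, an epithelial growth factor, at 113, 365, 161 and 191. Tnf was lowest in Papain WT (log2 ratio -1.29 (95% counting interval -1.60 to -0.98) for papain over DPBS in WT and 1.59 (95% counting interval 1.32 to 1.87) for KO over WT with papain); 1 cell held 28.4% of the DPBS WT UMIs and 29.8% of those of Papain KO. Il10 (4.504 to 13.9) and Il12b (0 to 11.1) were close to absent, while Tgfb1 was even at 649, 662, 498 and 475. Of 11 assessed genes, 3 were 2-fold higher in KO over WT with DPBS, and with papain 2 of 14 were higher and 1, Il1rn, lower. Over all genes, 1.76% were higher with DPBS, and with papain 2.02% were higher and 2.74% lower. A single cell held more than 20% of the higher library's UMIs for 3 of the 3 (Areg, Il1rn and Il6) and for 2 of the 2 (Il1a and Tnf) higher genes.

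**Figure D5:**
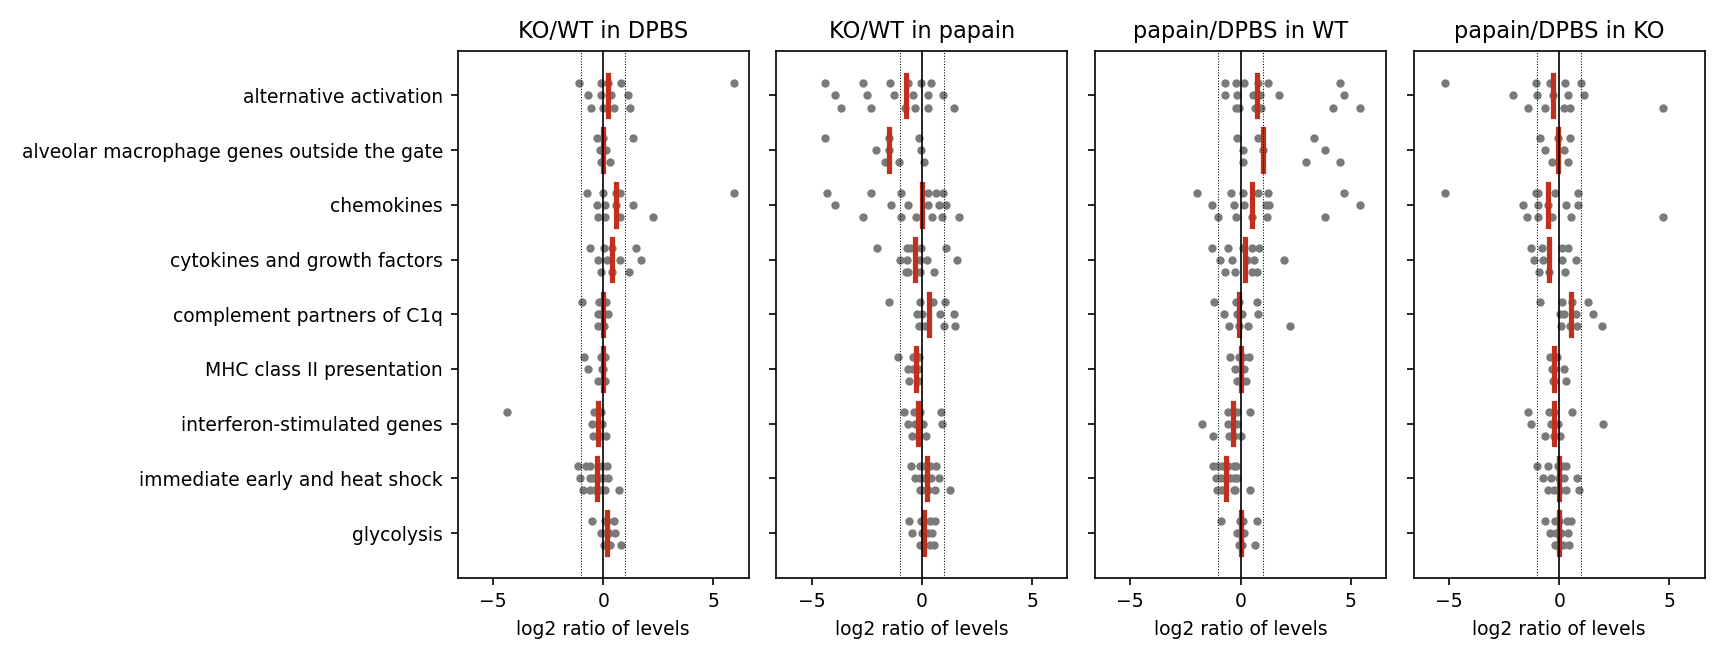
Log2 ratio of levels for each assessed gene (grey points) of 9 gene lists in the 4 comparisons, with the median as a red bar; dotted lines mark 2-fold, and a gene with no UMI in 1 library is drawn at its bound against 3 UMIs. The alternative activation and alveolar lists lie to the right in papain over DPBS in WT and to the left in KO over WT with papain, the glycolysis medians lie between -0.02 and 0.17, and the class II medians lie near 0 in 2 comparisons and at -0.29 and -0.25 in the 2 that involve Papain KO.

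Immediate early and heat shock genes, which tissue dissociation is also known to induce, were lower with papain in WT. There, 4 of 18 were 2-fold lower and none higher (median -0.65), where 1.36% of all genes were lower. Hspa1a, the inducible HSP70, stood at 4151, 1860.0, 1911 and 1863, Jun at 1432, 948, 674 and 801 and Dnajb1, its co-chaperone, at 667, 394, 278 and 199. DPBS WT was the high library for Hspa1a and Jun, and the other 3 lay close together. In KO over WT the list's median was -0.28 with DPBS and 0.22 with papain.

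Interferon-stimulated genes were also lower with papain in WT, 3 of 13 by 2-fold (median -0.36), where 1.36% of all genes were lower. Irf7, the regulator of type I interferon, stood at 121, 110.3, 36.6 and 41.8. The 3 called genes, Ifit3, Irf7 and Oasl2, each had more than 20% of the DPBS WT UMIs in 1 cell. The Plac8 and Ace cluster had the highest levels of this programme: Irf7 stood at 289 in it and at most 15.6 elsewhere, and Ly6e at 1514 against at most 459. Without that cluster the list's median was 0.42, with the opposite sign.

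The resident programme with Lyve1 and Folr2 had 5 of 10 assessed genes past 2-fold in KO over WT with papain (median -0.64), where 4.76% of all genes were called. F13a1 and Ltc4s were higher, and Mrc1, Ccl24 and Fcna, a ficolin (10.6, 0, 84.2 and 24.05), were lower, with 78.8% of the Papain WT UMIs of Fcna in 1 cell. In papain over DPBS in WT, 3 of 10 were higher (Ccl24, Fcna and Ltc4s, each with more than 20% of its UMIs in 1 cell). All 3 met the UMI minimum only through Papain WT and had then to differ. In papain over DPBS in KO, 2 of 9 were higher and 1 lower, and with DPBS none of 5 was called in KO over WT. Fcna in KO over WT with papain, and Ccl24 in papain over DPBS in KO, met the minimum only through the higher library.

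The remaining programmes gave at most 2 calls per direction in any comparison. In KO over WT with papain, 2.02% of all genes were higher and 2.74% lower. Lipid-associated genes had 0 higher and 2 lower of 19 in KO over WT with papain (median 0.08), with Trem2 at 412, 304, 275 and 289.8 and Spp1 (osteopontin) at 338, 27.02, 121 and 26.6, of which 1 cell held 78.1% in DPBS WT. Receptors and adaptors for uptake of dying cells had none higher and 2 lower of 17 (median -0.04), with Axl at 294, 308, 360.4 and 237 and Mfge8, a bridge to dying cells, at 119.6, 31.5, 53.6 and 18.98. The 2 lower genes for uptake, Mfge8 and Nr1h3, met the UMI minimum only through Papain WT and had then to differ. For Nr1h3, 1 cell held 23.3% of the Papain WT UMIs. Iron genes gave no call between genotypes in 7 and 8 assessed genes, and Hmox1 (haem oxygenase 1) stood at 443, 277, 189 and 356. Fc receptor genes gave no call between genotypes in 7 assessed genes, glycolysis genes none in any comparison, and Fcgr1 was lower with papain in WT (139, 99.1, 66.3 and 58.2). Dividing cells were scarce: Mki67 stood at 17.6 to 27.2. Among transcription factors, Hes1, a Notch target, stood at 89.7, 24.8, 37.4 and 78.5 and Irf4 at 29.9, 40.5, 61.2 and 18.98.

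Between the DPBS libraries, the genes named by size of difference beyond those above were few with a known role in macrophages. Mt2, a metal-binding protein, stood at 148, 479.6, 214 and 257 and Smox, spermine oxidase, at 35.2, 87.8, 65.5 and 49.4, both higher in DPBS KO, and Mef2c at 128, 49.5, 61.2 and 54.4, lower. Smox met the minimum of 50 UMIs only through DPBS KO and had then to differ. Ssfa2, Smim3 and 2810474O19Rik were the other genes named higher, and Tmem55b, Hivep3, Tnfaip8l2, Snd1 and Slc29a3 the others named lower, with log2 ratios of 1.28 to 1.43 and -1.71 to -1.31. In papain over DPBS, F10 (coagulation factor X) stood at 28.1, 76.6, 191 and 278 and was higher with papain in both genotypes, as was C3. F10 in WT and C3 in KO met the minimum of 50 UMIs only through the papain library and had then to differ. The genes named in 1 genotype only were not tested for a difference between genotypes. Of those given with values, Acp5, Olr1, Mefv and Slc7a2 in WT and Pygl in KO met the 50-UMI minimum only through the papain library. They had then to differ. In WT, Acp5, the tartrate-resistant phosphatase (22.9, 47.3, 181 and 69.6), Olr1, an oxidised LDL receptor (7.04, 6.76, 45.9 and 68.3), Mefv (8.79, 20.3, 43.4 and 43.03) and Slc7a2, an arginine transporter (14.1, 45.04, 61.2 and 22.8), were named higher, and Ace (230.4, 99.1, 78.2 and 46.8), Pmp22 (216, 164, 86.7 and 177) and Lyl1 (104, 54.04, 42.5 and 48.1) lower with Trim47, Antxr2, Esrra, Hmox2 and Ints12. In KO, Pygl, glycogen phosphorylase (49.2, 15.8, 46.8 and 113), and Hopx (73.9, 51.8, 105 and 219) were named higher with Brd9, Hgsnat and Gm6377, and Etv3 (211, 374, 223 and 130.4), Csrnp1 (229, 396, 259 and 158) and Ifi27l2a (737, 815, 587 and 333) lower with Map3k14, Tspan13, Tes and Chst12.

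Cells also varied in markers counted after each was thinned to 2000 UMIs, which left out 3 shallow Papain WT cells. A UMI of Ly6c2 or Ccr2 was found in 60.5%, 34.4%, 44.6% and 50% of members, of Trem2, Gpnmb or Spp1 in 48.8%, 46.9%, 43.4% and 37.0%, and of Folr2, Lyve1, Cd163 or F13a1 in 11.6%, 12.5%, 8.43% and 23.9%. Of the 27 cells with the last group, 18 also had Ly6c2 or Ccr2. The unthinned shares of the last group were 34.9%, 21.9%, 24.4% and 50%.

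Ift20, the gene floxed in these mice, stood at 59.8, 65.3, 61.2 and 59.5 among C1q macrophages, with log2 ratios of 0.13 (95% counting interval -0.64 to 0.88) for KO over WT with DPBS and -0.04 (95% counting interval -0.60 to 0.51) with papain. In T cells without a UMI of the 6 alveolar genes or C1q it stood at 56.7, 20.3, 56.6 and 18.8, lower in both KO libraries. The T cells thus matched their genotype labels, and in C1q macrophages no difference in Ift20 was detectable beyond counting error.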

How the data were processed

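Live CD45.2+ lung cells were measured with the Chromium 3′ v3 assay in 4 libraries, 1 per group. The deposited count matrices hold UMI counts per gene and barcode for 31053 genes, made by the authors with Cell Ranger on mm10 per the submitters' processing notes; the matrix headers give software version 3.1.0, and the annotation was not given in the sources used here. Samples were grouped by title. Library totals were 53854420 to 75675956 UMIs.

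Cells, members and gates were chosen as the report gives, and the members and the gene lists were chosen with earlier results of these data known. Counts were summed over the members of each library and given per 1000000 (CPM). No between-group test exists with 1 library per group. Levels have exact Poisson intervals, ratios conditional exact binomial intervals and shares Clopper-Pearson intervals, at 95%; all cover counting error only, not the spread between cells or mice. A gene at 0 in 1 library was set against a floor of 3 UMIs. Genes needed 50 UMIs over both libraries. Named genes were, per comparison, the 8 highest and 8 lowest past 2-fold whose interval excluded 0 and of which no cell held more than 20% of the higher library's UMIs; other genes come from the lists, and set aside as carried by 1 cell were 42 (KO over WT, DPBS), 65 (papain), 64 (papain over DPBS, WT) and 65 (KO).

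Members were clustered with scanpy 1.11.5 (Leiden, resolution 0.6, 15 neighbours, 15 principal components); leading genes had a UMI in at least 40% of the cluster's cells. T and B gates were cells with a UMI of only Cd3e or only Cd79a. Without either, the alveolar gate had 2 or more of the 6 genes, and with fewer of them and fewer than 5 C1q UMIs the monocyte gate had 2 Ly6c2 UMIs and fewer than 20 of S100a8 and the dendritic gate a Flt3 and 5 H2-Ab1 UMIs; scripts were tested on simulated data. Alternatives changed the gate, doublets, scaling, UMI minimum and thinning depth; leaving out the highest cell of each gene or a cluster was chosen after seeing the data. Promoters are from RefSeq, GRCm38.p6, of which 4 of 5 genes looked up were matched. Some markers are not reported here.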

Additional observations from a re-analysis of the deposited data

Results flagged for a closer look

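Some values had opposite signs in the 2 genotypes or the 2 treatments. With 1 library per group these differences between effects were not tested. The log2 ratio of Il1rn, KO over WT, was 1.18 with DPBS and -2.05 with papain, and papain over DPBS it was 1.97 in WT and -1.26 in KO. In DPBS KO, 1 cell held 32.7% of the Il1rn UMIs. Fabp5, KO over WT, stood at 1.36 with DPBS and -2.06 with papain. Of its UMIs, 1 cell held 48.3% in DPBS KO and 1 cell 26.7% in Papain WT. Hes1 went the other way for KO over WT, at -1.86 with DPBS and 1.07 with papain. For papain over DPBS, Hes1 stood at -1.26 in WT and 1.66 in KO. In KO over WT with DPBS and in papain over DPBS in KO, Hes1 met the UMI minimum only through the higher library. In these comparisons it had then to differ.

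Ccl22, KO over WT, stood at 5.94 with DPBS, a bound against 3 UMIs since DPBS WT had none, and at -3.93 with papain. Papain over DPBS it stood at 4.68 in WT, likewise a bound, and at -5.19 in KO. In each of these comparisons Ccl22 met the UMI minimum only through the higher library and had then to differ. Ccl17, papain over DPBS, stood at 1.24 in WT and -1.03 in KO. The median of the chemokine list, papain over DPBS, was 0.54 in WT and -0.50 in KO, and that of the immediate early and heat shock list, KO over WT, was -0.28 with DPBS and 0.22 with papain. A single cell held 94.4% of the DPBS KO UMIs of Ccl22 and 68.4% of those of Ccl17.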

How the results depend on the processing

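The share of C1q macrophages, papain over DPBS in WT, kept its direction and stayed past counting error under all 11 alternatives run, with log2 ratios of 0.81 to 1.26. In KO it ranged from 0.00051 to 1.06 and passed counting error with doublets removed, at 0.79 (0.06 to 1.55), and with myeloid cells as the denominator. KO over WT with papain ranged from -0.91 to -0.08 and passed counting error with a C1q minimum of 3 UMIs, at -0.51 (-1.03 to -0.01), and without the Slpi and Ednrb cluster, at -0.91 (-1.57 to -0.29). With DPBS it ranged from -0.22 to 0.30.

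The number of genes past 2-fold, in the order KO over WT with DPBS and papain, then papain over DPBS in WT and KO, was 429, 631, 610 and 540 with a minimum of 20 UMIs per gene and 1959, 1861, 1992 and 1786 with no minimum, since low counts enter. Without the Slpi and Ednrb cluster the last was 98 in place of 156.

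For the median of the alveolar list, papain over DPBS in KO, the value of -0.04 became -0.36 with a C1q minimum of 10, -0.33 with no alveolar gene allowed, 0.21 with doublets removed, 0.19 with the stricter lymphoid limit, 0.27 with a minimum of 20 UMIs, -0.38 without the Plac8 and Ace cluster and 0.47 without the Slpi and Ednrb cluster. KO over WT with papain it was -0.77 with no alveolar gene allowed and -0.86 without the Slpi and Ednrb cluster. Under the same settings the class II median was -0.40 and -0.46, and the immediate early and heat shock median 0.044 and 0.41, which was also 0.41 with the stricter lymphoid limit. The latter list's median, papain over DPBS, was -0.24 in WT with no alveolar gene allowed, and in KO 0.22 with the stricter lymphoid limit and 0.23 without the Slpi and Ednrb cluster.

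Single genes changed sign in 8 cases: with no alveolar gene allowed, Retnla (KO over WT, DPBS) was -0.10 and Ccl24 (KO over WT, papain) 0.20. Without the highest cell, Ccl17 (papain over DPBS, KO) was 0.069. Without the Slpi and Ednrb cluster, Pygl (KO over WT, papain) was -0.23 and F13a1 (KO over WT, papain) -0.16, and papain over DPBS in KO Cfp was -0.86, Clec4e -0.90 and Thbs1 -0.10. The cause was not tested. Thinned to 1000 UMIs, the share with Ly6c2 or Ccr2 was 25.6% in DPBS WT and 32.6% in Papain KO, and that with Trem2, Gpnmb or Spp1 32.6% in DPBS WT and 27.9% in Papain WT.

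No paired analysis was possible because each group had 1 library, and no library could be left out for the same reason. Depth limits genes under 50 UMIs, and at 32 to 86 cells a library a level can rest on 1 cell.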
